A study of Sus scrofa with 9 samples.

Results

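Testis of an oligospermic boar with a normal male karyotype was compared with testis of fertile control boars. Oligospermia is a low concentration of sperm in the ejaculate. The comparison takes 6 of the 9 arrays of the series, chosen by their labels alone: 3 arrays labelled oligospermic and 3 labelled control. The remaining 3 arrays are from a boar with severe oligo-astheno-teratospermia (few, poorly moving and malformed sperm) that carries the reciprocal translocation t(1;14), and their values are given beside some probes only. All samples are total RNA of testicular biopsies of pigs (Sus scrofa) with no treatment, and the labels give no age for any animal. The design text names a single oligospermic boar, so its 3 arrays are separate biopsies and extractions of 1 animal. The study names 3 fertile control boars with normal semen, also with a normal karyotype, and speaks both of extractions from each animal and of a pool of control boars, so whether a control array holds 1 of these boars or a pool was not settled here. The p-values below therefore measure the spread between arrays, and the semen phenotype cannot be told apart from other differences between the animals.

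Sperm are made in the seminiferous tubules of the testis. Spermatogonia divide and enter meiosis as spermatocytes, whose homologous chromosomes pair and exchange strands at DNA breaks made by the enzyme SPO11. The haploid products, the spermatids, then replace histones with transition proteins and protamines and build the acrosome and the flagellum. Sertoli cells nurse the germ cells under follicle-stimulating hormone, and Leydig cells between the tubules make testosterone under luteinizing hormone. Peritubular muscle cells, fibroblasts, vessels, macrophages and lymphocytes complete the organ. In a biopsy of whole tissue, fewer cells of a type and less RNA per cell cannot be told apart.

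RNA was labelled with cyanine 3 and hybridized to a porcine Agilent array of 60889 probes of 60 bases. Values are log2 of the processed signal of the scanner software, quantile normalized over the 6 arrays, and a log2 fold change is the oligospermic mean minus the control mean, with its standard error (SE) from limma. A probe entered the test if either group had it well above background on 2 or more of its 3 arrays, and 39713 probes did. Between 37425 and 40632 probes were well above background on a control array and between 37614 and 39672 on an oligospermic array, and 52 to 265 were saturated. The median SD over all tested probes was 0.239 between control arrays and 0.175 between oligospermic arrays. Pearson's r, taken across probes, which do not count as replicates, was 0.976 to 0.981 among the controls, 0.987 to 0.994 among the oligospermic arrays and 0.974 to 0.985 between groups. The first principal component held 36.6% of the variance, and control 1 lay farthest out on it. The second held 26.7%, with control 1, 2 and 3 at -9.79, 51.4 and 51.1. Oligospermic 1, 2 and 3 were at -53.6, -22.7 and -16.4 on it, all below the controls.

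Few probes differed between the groups. Over all tested probes the median log2 fold change was 0.001, and the central 90% of values lay between -0.57 and 0.53. The thresholds of the study are an adjusted p no higher than 0.01 and a log2 fold change of 2 or more in size. By these, 29 probes were differential, which is 0.073% of those tested. Of these 18 were higher in oligospermic testis (0.0453%) and 11 lower (0.0277%). The groups did not overlap for any of the 29, which restates their selection for a large difference with little spread. Of all tested probes 15.7% had groups without overlap. Each of the 3 slides held 1 array of each group, and all 29 probes had the same direction on the 3 slides, as the lack of overlap requires. With slide as a block 0 probes passed both thresholds, while 27 of the 29 had an adjusted p of at most 0.05. At an adjusted p of at most 0.05 with no limit on the fold, 80 probes passed (0.201%), 51 higher (0.128%) and 29 lower (0.073%), with a smallest log2 fold change of 1.04 in size. An unadjusted p under 0.05 was found for 3915 probes (9.86%).

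**Figure D1:**
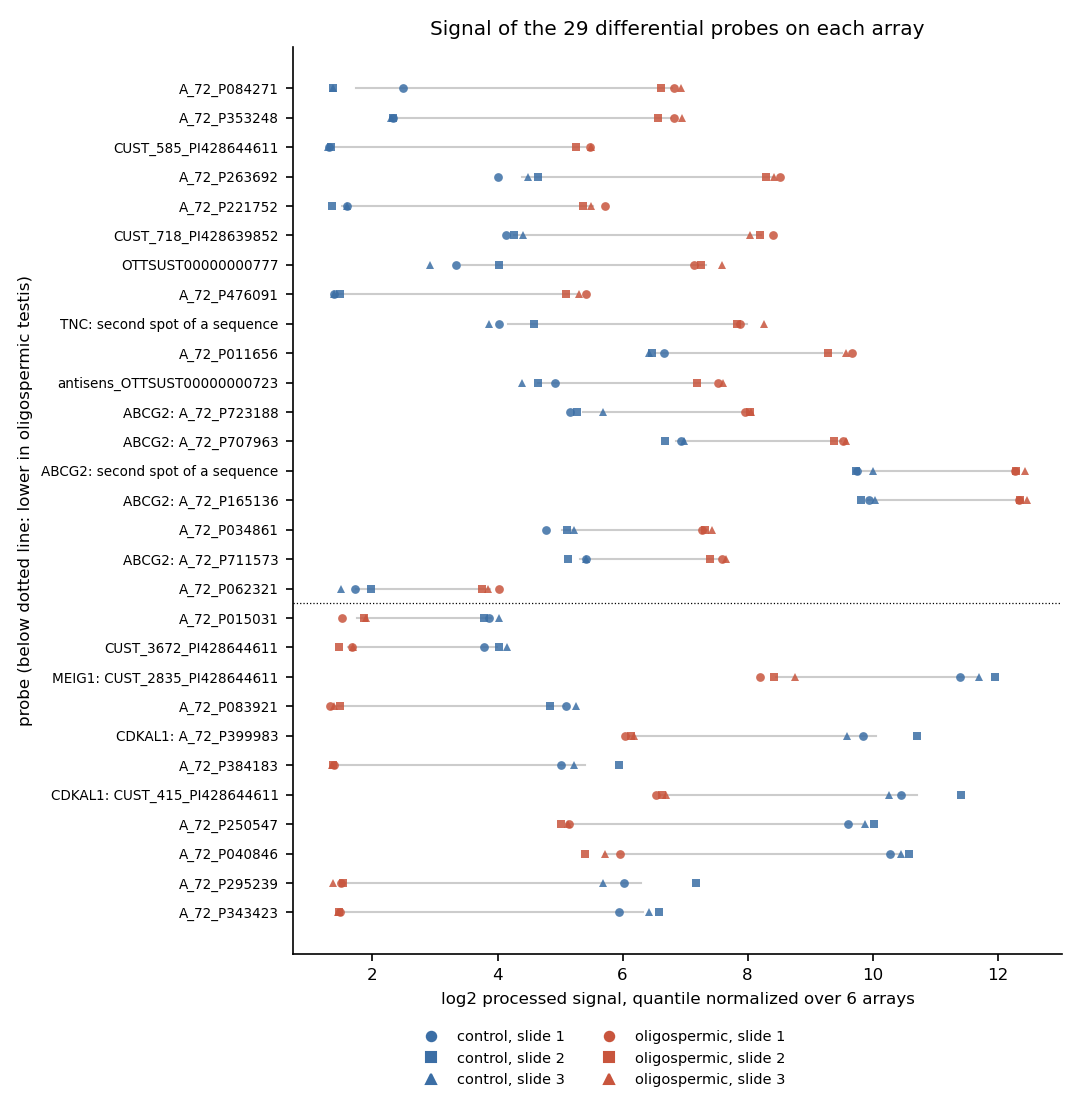
Normalized log2 signal (x axis) of the 29 differential probes (y axis) on each of the 6 arrays, with control arrays in blue, oligospermic arrays in red and a marker shape for each slide; a grey line joins the group means. The 18 probes above the dotted line were higher in oligospermic testis and the 11 below it lower, and no probe has a control array between its oligospermic arrays.

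The 29 probes carry 28 different sequences. A gene could be named for 9 of them, which belong to ABCG2, TNC, CDKAL1 and MEIG1. The other 20 are known by their probe or transcript identifier, in some cases with a description in the array's annotation. Of the 29 probes, 6 were well above background on no control array and 6 on no oligospermic array, and for these only a limit on the fold is given, as "at least". The plot of the differential probes shows all their values.

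ABCG2 was higher in oligospermic testis by every probe the array holds for it. ABCG2 is an ATP-driven efflux transporter of the cell membrane, found at the blood-testis barrier, that pumps out drugs, steroid conjugates and urate. It lies on chromosome 8 of Sscrofa11.1. The array carries 4 different ABCG2 sequences on 5 spots. Of these 3 are shown because they sample separate stretches of the transcript, so that the same change was read 4 times by sequences that do not overlap. The position is that of the first base in the target transcript as the scanner file numbers it, and the letters are from the deposited scanner files.
ABCG2 from base 432: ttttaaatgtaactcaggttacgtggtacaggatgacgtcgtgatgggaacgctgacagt
ABCG2 from base 832: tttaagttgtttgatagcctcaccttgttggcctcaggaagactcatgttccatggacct
ABCG2 from base 1201: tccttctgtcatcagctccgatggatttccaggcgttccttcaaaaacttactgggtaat

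The brightest ABCG2 probe, from base 1999, read 9.94, 9.82 and 10.03 on control 1, 2 and 3 and 12.34, 12.35 and 12.47 on oligospermic 1, 2 and 3. All 3 oligospermic arrays lay more than 2 log2 units over every control array. This is a log2 fold change of 2.46 with an SE of 0.12 (adjusted p in limma 0.00151), or a 5.50-fold difference. The second spot of that sequence gave 2.51. The probe from base 1201 read 6.93, 6.68 and 6.98 in controls and 9.53, 9.38 and 9.57 in oligospermic testis, a log2 fold change of 2.63. The probes from base 832 and base 432 gave 2.65 and 2.23, so the 5 spots, whose levels spanned a wide range, placed the difference within 0.41 log2 units of each other. Leaving out oligospermic 1, 2 or 3 kept the probe from base 1999 between 2.41 and 2.48 but took its adjusted p to between 0.0165 and 0.0257. ABCG2 was also the only gene past both thresholds when a single probe per gene was tested, with an adjusted p of 0.00271 over 6471 genes. Values of t(1;14) testis are given here from a normalization of all 9 arrays together, and they are set against the same control arrays. On that scale the probe from base 1999 had a mean of 10.27 in t(1;14), 9.89 in control and 12.31 in oligospermic testis.

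Among the other ATP-binding cassette transporters none passed the test. Of the 11 genes of this family measured by their brightest probe, ABCG2 alone had an adjusted p of at most 0.05, where 10 of all 6471 genes (0.155%) did so. Of the 11 genes, 9 had a log2 fold change below 0, and the median was -0.07. ABCB4, a phospholipid exporter, read 7.08, 7.74 and 7.42 in controls and 6.89, 7.04 and 6.65 in oligospermic testis. Its groups did not overlap, and its log2 fold change was -0.55 (adjusted p = 0.45). ABCA1, which exports cholesterol, was at -0.34 (adjusted p = 0.75).

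For TNC, CDKAL1 and MEIG1 the probes of 1 gene disagreed. TNC encodes tenascin-C, a matrix glycoprotein made in development, repair and around smooth muscle. Its sequence from base 5683 is on 2 spots. The spot that was called read 4.02, 4.59 and 3.87 in controls and 7.88, 7.82 and 8.25 in oligospermic testis. The groups lay more than 3 log2 units apart, with a log2 fold change of 3.83 (SE 0.23, adjusted p = 0.00366), and with slide as a block the adjusted p was 0.0488. Without oligospermic 1, 2 or 3 it was 0.0274 to 0.0334, and the log2 fold change 3.69 to 3.91. The other spot of this sequence gave 3.49 with an adjusted p of 0.0127, just outside the first threshold. The other TNC sequence, from base 3747, read 4.06, 4.64 and 4.94 in controls and 3.84, 4.86 and 5.54 in oligospermic testis. On it the groups overlapped, and the log2 fold change was 0.20 (adjusted p = 0.94).

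CDKAL1, on chromosome 7, encodes an enzyme that adds a methylthio group to a lysine transfer RNA and is known for its link to type 2 diabetes. Its custom probe read 10.46, 11.41 and 10.26 in controls and 6.54, 6.63 and 6.70 in oligospermic testis. Every oligospermic array was more than 3 log2 units under every control array, and the log2 fold change was -4.09 (SE 0.30, adjusted p = 0.00743). The probe from base 2020 read 9.85, 10.71 and 9.59 against 6.04, 6.13 and 6.19, a log2 fold change of -3.93. Without oligospermic 1, 2 or 3 the adjusted p of both was 0.0533 to 0.0816. The third sequence, from base 743, did not follow: it read 7.31, 7.49 and 7.42 in controls and 7.52, 7.64 and 7.82 in oligospermic testis, with a log2 fold change of 0.25 (adjusted p = 0.63). In t(1;14) testis the first 2 of these CDKAL1 probes had means of 10.78 and 9.88 on the scale of 9 arrays.

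MEIG1, on chromosome 10, is a germ cell protein that spermatids need to build the manchette and the flagellum. Its custom probe read 11.40, 11.96 and 11.71 in controls and 8.20, 8.42 and 8.76 in oligospermic testis. The groups were far apart, with a log2 fold change of -3.23 (SE 0.21, adjusted p = 0.00434), a 9.36-fold difference. Without oligospermic 1, 2 or 3 the adjusted p was 0.0257 to 0.0472. The other MEIG1 probe, from base 383, was much brighter on its own scale and read 14.78, 14.70 and 14.59 in controls and 14.64, 14.68 and 14.78 in oligospermic testis. On that probe the groups overlapped fully, with a log2 fold change of 0.01 (adjusted p = 0.99).

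Among the higher probes with no gene named, several went from the background in controls to a clear signal. Probe A_72_P353248, for which the annotation gives no target, is shown because no higher probe had a lower adjusted p.
A_72_P353248: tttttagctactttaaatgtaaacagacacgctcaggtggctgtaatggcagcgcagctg
It read 2.32, 2.32 and 2.30 in controls, never well above background, and 6.82, 6.56 and 6.96 in oligospermic testis. It was at least 9.48-fold higher there (adjusted p = 3.0e-04). In t(1;14) testis it lay between the groups, at 3.90, 4.66 and 4.08 on the scale of 9 arrays. Probe A_72_P084271 read 2.49, 1.37 and 1.37 in controls and 6.82, 6.61 and 6.93 in oligospermic testis, at least 9.53-fold higher. Probe A_72_P221752 read 1.59, 1.36 and 1.60 against 5.73, 5.37 and 5.50, at least 3.99-fold higher. Neither had a control array well above background.

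A pair of probes of transcript ENSSSCT00000001128, which the annotation describes as orofacial cleft 1 candidate 1, behaved alike. They are shown because the 57 bases in capitals are common to both, so they are not separate readings of the transcript.
CUST_585_PI428644611: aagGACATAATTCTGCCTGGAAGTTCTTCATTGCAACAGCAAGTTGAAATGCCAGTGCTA
A_72_P476091: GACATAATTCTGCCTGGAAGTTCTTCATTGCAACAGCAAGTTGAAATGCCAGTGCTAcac
The first read 1.30, 1.33 and 1.29 in controls and 5.48, 5.25 and 5.49 in oligospermic testis, at least 3.66-fold higher. The second read 1.38, 1.48 and 1.38 against 5.42, 5.10 and 5.30, at least 3.33-fold higher. Both groups were tight and far apart. However, a further spot with all 60 bases of the first probe, listed for transcript ENSSSCT00000022619, read 4.90, 5.26 and 4.66 in controls and 6.18, 6.12 and 6.63 in oligospermic testis. Its groups did not overlap either, but its log2 fold change was 1.37 (adjusted p = 0.0954), and it was well above background on all 6 arrays. Of the 2097 sequences tested on more than 1 spot, this was the pair with the largest difference in mean level, 2.27 log2 units against a median of 0.0924, and the next pair differed by 1.90. The size of the change at this sequence therefore rests on which spot is read.

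Probe CUST_718_PI428639852 read 4.13, 4.26 and 4.41 in controls and 8.41, 8.20 and 8.03 in oligospermic testis, a log2 fold change of 3.95. Probe A_72_P263692, described by the annotation as similar to C9orf57, read 4.01, 4.65 and 4.49 against 8.52, 8.30 and 8.42, a log2 fold change of 4.03, and had a mean of 6.82 in t(1;14) testis. Probe A_72_P011656, described as FGD6, a gene for an exchange factor of the small GTPase CDC42, read 6.67, 6.46 and 6.42 against 9.66, 9.28 and 9.58. These 3 probes each kept at least 2 log2 units between the groups. Probe A_72_P034861 rose by 2.31, from a control range of 4.78 to 5.22. Probe A_72_P062321, at 1.72, 1.98 and 1.5 in controls and 4.02, 3.75 and 3.85 in oligospermic testis, was well above background on no control array and at least 1.26-fold higher. Probe A_72_P523299 of the same target, which shares 31 bases with it and was also above background on no control array, was at least 2.98-fold higher (adjusted p = 0.0241).

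The array also carries probes for manually annotated transcripts (OTTSUST identifiers), with partners that read the opposite strand. The antisense probe of OTTSUST00000000723 read 4.93, 4.65 and 4.39 in controls and 7.52, 7.19 and 7.61 in oligospermic testis, without overlap and with a log2 fold change of 2.79. The sense probe of that transcript, among the brightest of the array, read 14.70, 14.50 and 14.64 against 14.72, 14.64 and 14.67, a log2 fold change of 0.06. The sense probe of OTTSUST00000000777 read 3.34, 4.03 and 2.91 in controls, of which 1 array was well above background, and 7.14, 7.25 and 7.6 in oligospermic testis. The antisense probe of OTTSUST00000000777 did not pass the filter.

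Among the lower probes, 6 were well above background on no oligospermic array. Probe A_72_P343423 read 5.95, 6.58 and 6.43 in controls and 1.49, 1.46 and 1.45 in oligospermic testis, at least 6.34-fold lower. Probe A_72_P295239 read 6.02, 7.17 and 5.68 against 1.5, 1.53 and 1.37, at least 6.21-fold lower. Probe A_72_P384183, described as a malonyl-CoA transacylase of mitochondrial fatty acid synthesis, read 5.02, 5.95 and 5.23 against 1.38, 1.37 and 1.36, at least 3.34-fold lower. The low values of these probes are at the background of the scanner, so only the limits can be compared. Probe A_72_P083921 was at least 2.65-fold lower, CUST_3672_PI428644611 at least 1.26-fold, and A_72_P015031, described as cell division cycle 73, at least 1.17-fold.

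The remaining 2 of the unnamed lower probes kept a signal. Probe A_72_P250547 read 9.61, 10.02 and 9.87 in controls and 5.14, 5.01 and 5.13 in oligospermic testis, a log2 fold change of -4.74. Probe A_72_P040846, described as a homolog of C8orf37, read 10.27, 10.58 and 10.46 against 5.96, 5.40 and 5.73, also a log2 fold change of -4.74. Both groups of both probes were tight. With the 9 arrays normalized together, and with the same control arrays, the t(1;14) mean was 6.78 for A_72_P250547 and 9.59 for A_72_P040846, with all 3 t(1;14) arrays well above background on both. Of the 6 probes above, 5 were well above background on no t(1;14) array, while A_72_P015031 was so on all 3, at 4.36, 4.46 and 4.5.

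A group of 9 further genes had probes at an adjusted p of at most 0.05 outside the stricter thresholds. With the slide as a block none of these probes had an adjusted p of at most 0.05, the values in limma running from 0.0558 for SLA-6 to 0.151 for TACO1. SLA-6, a class I gene of the pig major histocompatibility complex on chromosome 7, had a probe that read 3.22, 3.17 and 3.34 in controls, never well above background, and 5.46, 5.13 and 5.12 in oligospermic testis. It was at least 3.12-fold higher there (adjusted p = 0.00743). The other SLA-6 probe on the array did not pass the filter. Of the 12 genes of class I presentation measured, SLA-6 alone passed, against 0.155% of all genes by their brightest probe. The median of the 12 was -0.18, and 0.05 over the 10 that passed the filter without control 3 and -0.35 over the 11 that did so without control 1. SLA-3, a classical class I gene, read 11.34, 11.92 and 11.73 in controls and 11.08, 10.92 and 10.72 in oligospermic testis, on its brightest probe, lower without overlap but with an adjusted p of 0.26. Its 8 sequences disagreed, with log2 fold changes from -0.76 to 0.49.

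SPO11, the enzyme that makes the DNA breaks of meiotic recombination, fell in oligospermic testis by the sequence shown, from base 1062, which is on 2 spots.
SPO11 from base 1062: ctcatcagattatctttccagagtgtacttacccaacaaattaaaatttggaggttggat
The first spot read 11.20, 10.48 and 11.16 in controls and 8.82, 8.94 and 8.51 in oligospermic testis. The groups were separated by more than 1 log2 unit, with a log2 fold change of -2.19 (SE 0.23, adjusted p = 0.0348). The second spot gave -2.09 (adjusted p = 0.0395). The other SPO11 sequence, from base 1885, was dimmer: it read 5.41, 4.55 and 5.13 against 3.95, 3.79 and 3.53 on 1 spot, with log2 fold changes of -1.27 (adjusted p = 0.155) and -0.78 (adjusted p = 0.397) on its 2 spots. All 4 spots were lower without overlap, but the dim sequence did not pass the test. With slide as a block the adjusted p of the first spot was 0.131.

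NTRK3, on chromosome 1, encodes the receptor tyrosine kinase for neurotrophin-3, and its probes disagreed. The 3 sequences shown are the end of the coding frame, closed by the stop codon in capitals, and the 2 others, on which no difference passed the test.
NTRK3 from base 2449: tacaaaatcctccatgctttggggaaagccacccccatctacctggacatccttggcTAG
NTRK3 from base 1557: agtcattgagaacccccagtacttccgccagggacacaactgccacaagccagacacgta
NTRK3, start not given: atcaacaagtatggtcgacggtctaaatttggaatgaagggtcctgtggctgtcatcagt
The probe from base 2449 read 6.65, 7.08 and 6.77 in controls and 8.54, 8.35 and 8.71 in oligospermic testis, higher by 1.70 (SE 0.17, adjusted p = 0.0248). A probe from base 2453, which shares 56 bases with it, rose by 1.75 (adjusted p = 0.0412). These are 2 readings of 1 site, and both kept the groups apart by more than 1 log2 unit. The probe from base 1557 had a log2 fold change of 0.09 (adjusted p = 0.947), and the third sequence gave -0.20 and -0.22 on its 2 spots.

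C4H8orf37, on chromosome 4, the pig gene of a ciliary protein of photoreceptors, gave 3 different answers from 3 sequences. Probe A_72_P040846 above, described as a homolog of C8orf37, was matched to no gene and is not among them. The probe from base 778 read 11.51, 11.43 and 11.48 in controls and 10.04, 9.78 and 9.98 in oligospermic testis, and fell by 1.54 (SE 0.13, adjusted p = 0.0121). The other 2 probes were at -0.84 (adjusted p = 0.0792) and 0.25 (adjusted p = 0.667). STRA6, a membrane receptor that takes up vitamin A, read 9.27, 9.19 and 9.37 in controls and 8.15, 7.94 and 7.92 in oligospermic testis on its brightest probe, lower by 1.27 with an adjusted p of 0.0269. Its other probes were at -0.80 and -0.06. USF1, a transcription factor of the E-box, rose by 1.36 (adjusted p = 0.0203) on 1 probe, from 5.04, 4.83 and 4.99 to 6.42, 6.27 and 6.25, while 2 others had log2 fold changes of 0.48 and 0.27 that did not pass.

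TACO1 and CKMT2 are 2 genes of mitochondria. TACO1, an activator of the translation of a cytochrome c oxidase subunit, read 7.0, 6.65 and 6.69 in controls and 7.98, 8.29 and 8.33 in oligospermic testis on its probe from base 861, and rose by 1.42 (adjusted p = 0.044). Its other probe, which shares 38 bases with the first, had a log2 fold change of 1.30 (adjusted p = 0.118). CKMT2, the mitochondrial creatine kinase of muscle, was higher without overlap on all 10 of its tested sequences, by 1.61 to 2.11 on the 7 with a signal in controls. The other 3 were well above background on no control array and were at least 1.83-fold, 2.27-fold and 1.52-fold higher. A single sequence passed an adjusted p of 0.05 (0.0408), at 2.47, 1.58 and 1.36 in controls, none well above background, and 4.54, 4.30 and 4.38 in oligospermic testis, at least 1.83-fold higher. With normexp background correction the median of CKMT2 was 0.65 in place of 1.89. Several CKMT2 probes start within a few bases of each other, so they are not 10 independent readings. MCCD1, a gene of the major histocompatibility region, was at 1.66, 1.82 and 1.29 in controls and 4.48, 3.73 and 4.21 in oligospermic testis on its single probe, at least 1.52-fold higher (adjusted p = 0.0203).

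**Figure D2:**
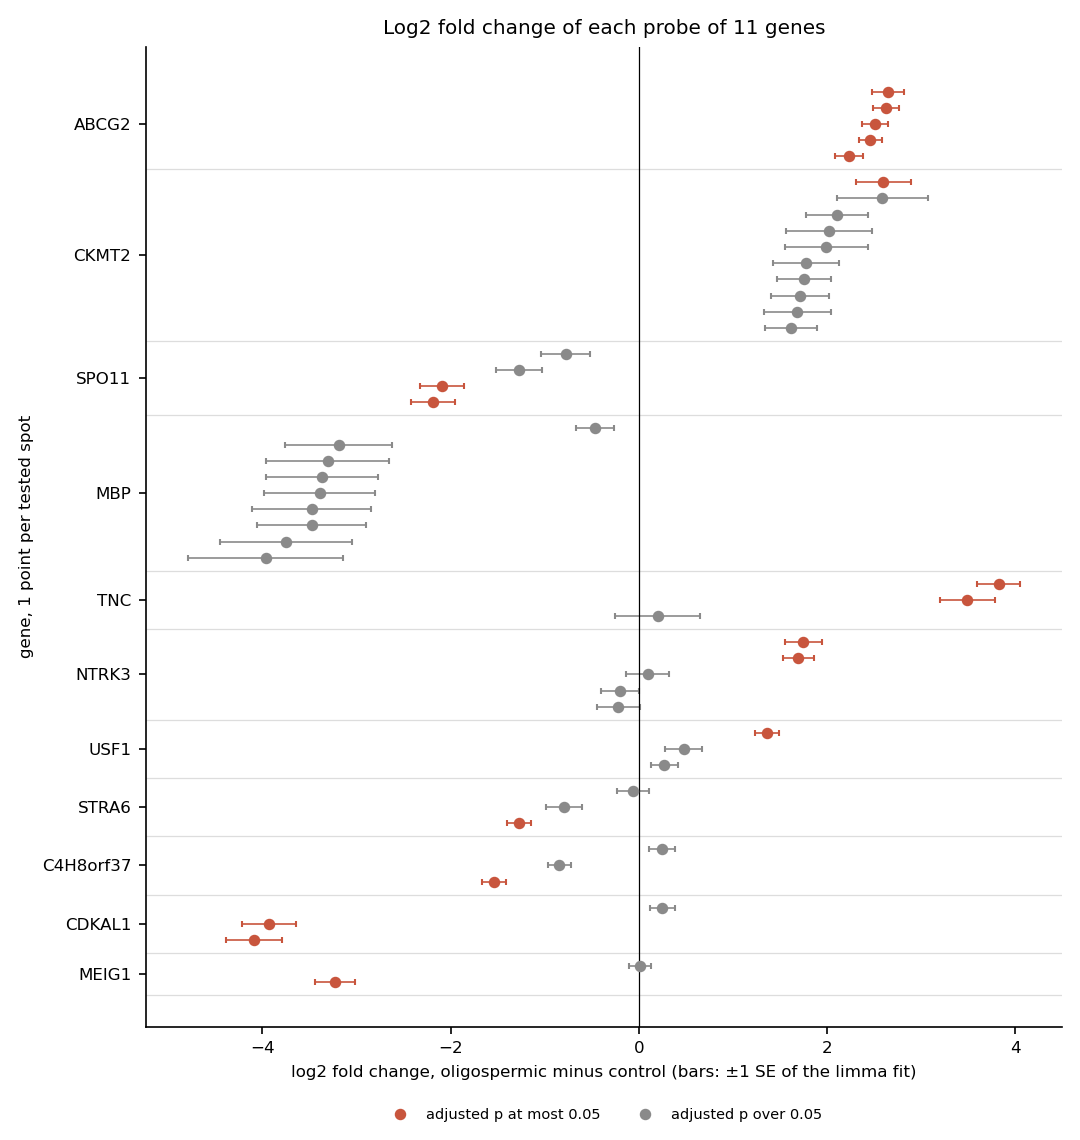
Log2 fold change, oligospermic minus control, of each tested spot (x axis, bars ±1 SE of the limma fit) of 11 genes (y axis), in red at an adjusted p of at most 0.05. The spots of ABCG2 and CKMT2 lie together above 0 and those of SPO11 and MBP all below 0, while for TNC, NTRK3, USF1, STRA6, C4H8orf37, CDKAL1 and MEIG1 a red spot stands apart from another spot of the gene near 0.

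Whether all probes of 1 gene fell on the same side of 0 was counted over the whole array. This count takes no account of size, so TNC, USF1 and STRA6, each with a probe near 0, count as agreeing. The share to be found without any difference was not computed. Of the 3903 genes with at least 2 tested sequences, 2340 (60.0%) had all probes on the same side of 0. The share was lower for genes with more sequences, from 71.3% of 1897 genes with 2 sequences to 56.5% of 908 with 3 and 43.3% of 1098 with 4 or more. It was 84.0% of 338 genes whose brightest probe differed by 0.5 or more on the log2 scale, 84.8% of 79 at 1 or more and 71.4% of 14 at 2 or more. Between 2 spots of the same sequence the log2 fold change differed by a median of 0.0511, and between 2 different sequences of 1 gene by 0.119. Probes of 1 gene read the same RNA of the same array, so these shares describe the array and are not a test.

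All tested probes of 188 genes (4.82%) lay without overlap in 1 direction, 97 higher and 91 lower. The 12 highest and the 12 lowest of them by median log2 fold change are plotted array by array. The ranking uses the normalized signal even where a group had no array well above background. This holds for both tested probes of CP and of ODAM and for part of those of XIRP2. Of these 24 genes only ABCG2, CKMT2, TACO1 and SPO11 had a probe at an adjusted p of at most 0.05, so the values of the other 20 are descriptions. In 22 of the 24 genes the control arrays spanned a wider range than the oligospermic arrays.

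**Figure D3:**
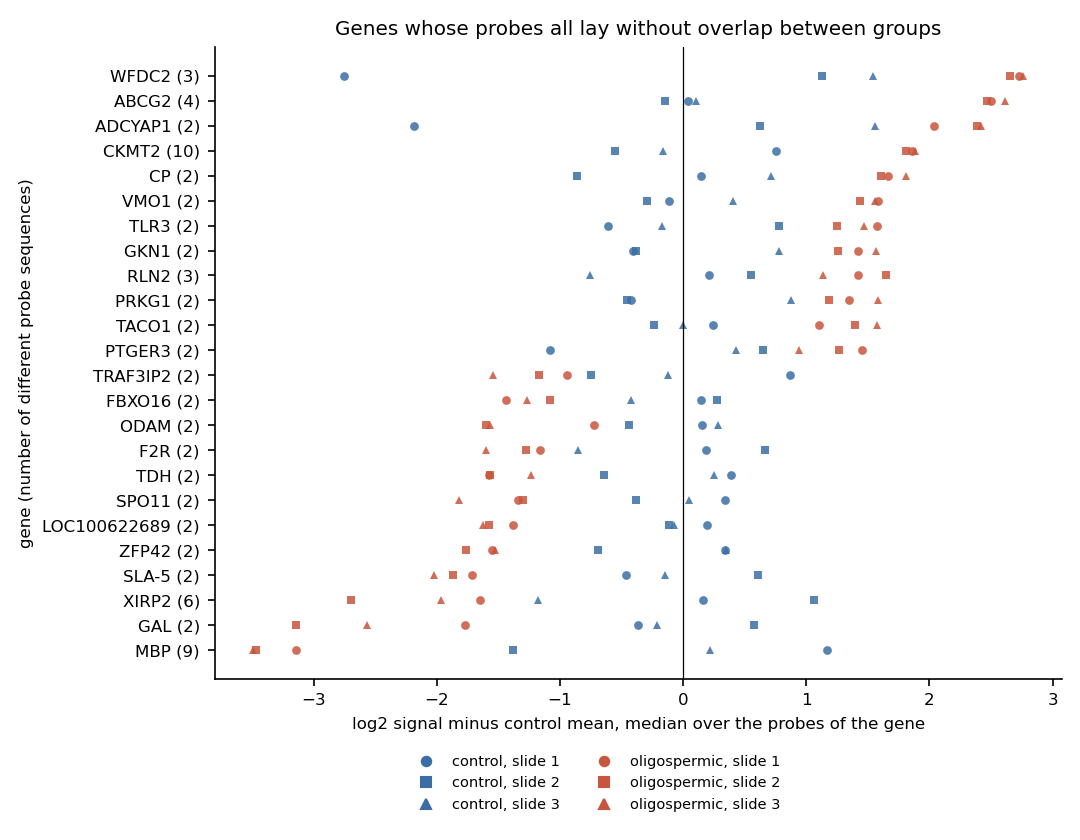
Signal of 24 genes (y axis, with the number of different probe sequences) on each array, as the log2 signal minus the control mean and taken as the median over the probes of the gene (x axis), with control arrays in blue, oligospermic arrays in red and a marker shape for each slide. The oligospermic arrays of most genes lie close together, while the control arrays of WFDC2, ADCYAP1, MBP and XIRP2 spread over more than 2 log2 units.

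On the higher side, WFDC2, a secreted protease inhibitor known from the epididymis, had a median log2 fold change of 2.72 over 3 sequences. Its brightest probe read 7.07, 9.74 and 10.24 in controls and 11.19, 11.15 and 11.28 in oligospermic testis. Control 1 was far below the other controls, and without it the median was 1.31. ADCYAP1, which encodes the neuropeptide PACAP, showed the same layout, at 5.17, 7.99 and 8.88 in controls and 9.59, 9.71 and 9.69 in oligospermic testis, with a median of 2.28 that was 1.19 without control 1. VMO1, a gene of the vitelline membrane family, had tight groups, at 6.23, 6.15 and 6.65 in controls and 7.86, 7.63 and 7.86 in oligospermic testis, and an adjusted p of 0.0503. The others were RLN2 (relaxin, 1.39), TLR3 (a receptor of double-stranded RNA, 1.43), PTGER3 (a prostaglandin E2 receptor, 1.22, and 0.68 without control 1), PRKG1 (the kinase of cyclic GMP signalling, 1.37) and GKN1 (gastrokine, 1.41), all as medians over their probes. CP, ceruloplasmin, has 5 probes on the array, of which 2 passed the filter. Both were well above background on no control array, so they entered the test through the oligospermic group alone. They were at least 1.6-fold and 1.67-fold higher. With normexp, which draws low signals together, these medians were lower, for example 0.47 for RLN2 and 0.53 for TLR3.

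On the lower side, MBP, the myelin basic protein gene, had the lowest median, -3.39 over 9 sequences. Its probe from base 1790 read 9.48, 6.95 and 8.55 in controls and 5.12, 4.75 and 4.93 in oligospermic testis. The controls spread over more than 2 log2 units, and the adjusted p was 0.123. The probe from base 303 read 9.37, 9.03 and 9.05 against 8.35, 8.69 and 9.01, a log2 fold change of only -0.47, while the 6 other sequences with a signal in both groups lay between -3.75 and -3.19. The remaining 2, from bases 1466 and 1237, were well above background on no oligospermic array and were at least 5.45-fold and 3.95-fold lower. GAL, the neuropeptide galanin, read 7.56, 8.73 and 7.85 in controls and 5.99, 5.56 and 5.41 in oligospermic testis (-2.39, adjusted p = 0.068). ZFP42, the pluripotency factor REX1, which is also expressed in spermatocytes, read 7.61, 6.53 and 7.54 against 5.61, 5.72 and 5.71 (-1.55, adjusted p = 0.155). SLA-5, another class I gene, had 2 probes at -1.12 and -2.61. XIRP2, an actin-binding protein of striated muscle, has 8 probes on the array, of which 6 passed the filter. Of the 6, 4 were well above background on no oligospermic array, so they entered the test through the control group alone. These 4 were at least 1.59-fold to 2.54-fold lower. The other 2 of the 6 had log2 fold changes of -1.29 and -0.58. With normexp the medians were -1.57 for MBP, -0.97 for GAL and -0.84 for ZFP42.

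The labelled tissue was checked against the markers of testis cells, by the brightest probe of each gene. PRM1, PRM2 and TNP1, the protamines and a transition protein of spermatids, were saturated on all 6 arrays, so no difference in them could be measured. Among all 6471 genes with a tested probe, the brightest probe passed an adjusted p of 0.05 in 10 genes (0.155%) and did not overlap between the groups in 1074 (16.6%), 594 higher (9.18%) and 480 lower (7.42%), with a median log2 fold change of 0.012, and the gene lists are to be read against these values.

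Among the germ cell markers SPO11 alone passed the test. The 18 spermatid markers measured had a median log2 fold change of -0.02 and a range of -0.11 to 0.24, and in none did the groups lie apart. ACRV1, of the acrosome, read 13.01, 12.91 and 13.09 in controls and 13.07, 12.97 and 12.90 in oligospermic testis. ODF1, of the outer dense fibres of the flagellum, read 14.13, 14.19 and 13.93 against 14.19, 14.09 and 14.16. The arrays of both groups overlapped for both genes. Since 6 of these 18 probes were saturated on at least 1 array, a change in the brightest of them could be hidden. The 10 spermatocyte markers had a median of 0.08, with SPO11 the only one that passed and 2 without overlap. HORMAD1, which coats the axes of meiotic chromosomes, read 10.97, 10.81 and 10.95 against 11.02, 11.05 and 10.81. The 8 spermatogonium markers had a median of 0.23, which was 0.14 without control 2 and 0.12 without control 3. KIT, the receptor of differentiating spermatogonia, read 10.55, 9.85 and 10.31 in controls and 9.55, 9.49 and 9.16 in oligospermic testis, lower without overlap (-0.84, adjusted p = 0.273). GFRA1, a marker of undifferentiated spermatogonia, was higher without overlap (0.60, adjusted p = 0.522).

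Among the somatic cells, Leydig markers stood apart most often, in both directions. Of 15 Leydig genes 40.0% had groups without overlap, 3 higher and 3 lower, against 16.6% of all genes. None passed an adjusted p of 0.05, and the median was 0.07. Among the lower, NR5A1 was at only -0.15 (adjusted p = 0.782). LHCGR, the receptor of luteinizing hormone, read 9.55, 9.69 and 9.47 in controls and 10.86, 10.60 and 10.15 in oligospermic testis. All oligospermic arrays were higher, with a log2 fold change of 0.97 (SE 0.20, adjusted p = 0.185). HSD3B1, a steroid dehydrogenase, was at 6.24, 6.21 and 6.11 against 6.66, 6.87 and 6.72 (0.56, adjusted p = 0.201). HSD11B1, which regenerates cortisol, was at 10.26, 10.07 and 10.10 against 9.66, 9.48 and 9.44 (-0.62, adjusted p = 0.183), and CYP11A1, the enzyme that cleaves the cholesterol side chain, was at -0.39. INSL3, the Leydig peptide that guides testis descent, read 15.76, 15.72 and 15.77 against 15.93, 15.57 and 15.44, so its groups overlapped.

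The 14 Sertoli markers had a median log2 fold change of 0.00 and none passed. FSHR, the receptor of follicle-stimulating hormone, read 9.16, 8.43 and 9.0 in controls and 8.27, 8.19 and 7.81 in oligospermic testis, lower without overlap (-0.77, adjusted p = 0.338), while SOX9 was at 0.14 and AMH at -0.24. The 8 peritubular and smooth muscle markers had a median of -0.12, and the 9 endothelial markers 0.09. Leaving out 1 array moved the first between -0.23 without control 1 and -0.01 without control 3, and the second between -0.19 without control 1 and 0.31 without control 3. In the 11 fibroblast and matrix genes the median was -0.12, and between -0.24 without control 2 and 0.06 without control 3, and only TNC passed. COL1A2, a chain of type I collagen, read 7.72, 7.54 and 8.34 in controls and 6.89, 6.52 and 6.34 in oligospermic testis, opposite in direction to TNC (-1.29, adjusted p = 0.16).

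None of the macrophage and lymphocyte markers passed the test. The 10 macrophage markers had a median of -0.40, which was -0.20 without control 3, and the groups overlapped on each of them. Their log2 fold changes ran from -1.05 for C1QA to 0.40 for MRC1, the mannose receptor. C1QA, a complement chain made by macrophages, read 5.35, 4.13 and 6.15 in controls and 4.27, 4.15 and 4.08 in oligospermic testis. The 7 lymphocyte markers had a median of -0.51, and 2 of them, FASLG (-0.77, adjusted p = 0.343) and LCK (-0.51, adjusted p = 0.632), were lower without overlap, against 7.42% of all genes. Without control 3 only 5 of them passed the filter, with a median of -0.13, and without control 1 also 5, with a median of -0.25. Of the 16 lymphocyte genes on the array 9 did not pass the filter, and CD3E, a chain of the T cell receptor complex, was well above background on 2 control arrays and no oligospermic array. The 3 erythrocyte and platelet markers had a median of 0.28. The part of leukocytes in the values of the other genes was not tested.

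**Figure D4:**
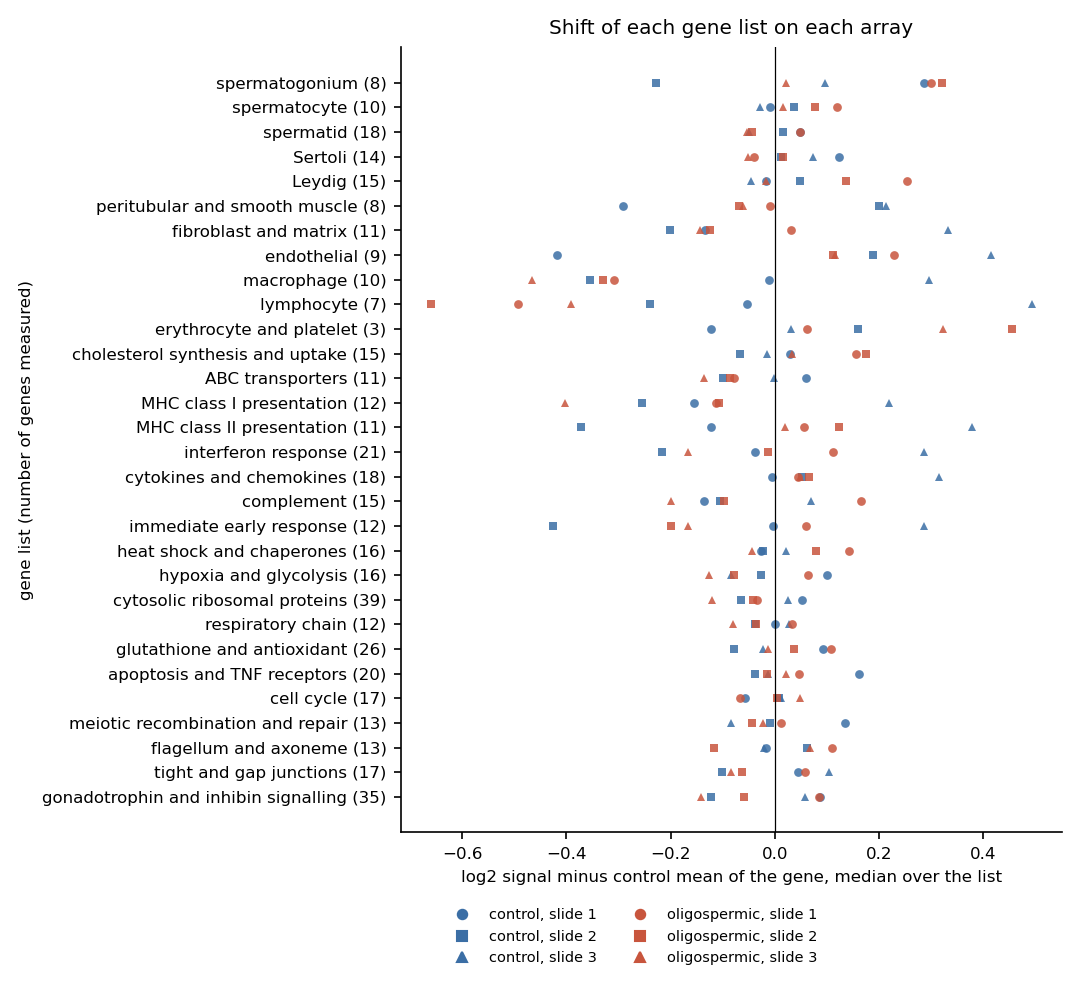
Shift of each of 30 gene lists (y axis, with the number of genes measured) on each array: the log2 signal of the brightest probe minus the control mean of that gene, taken as the median over the list (x axis), with control arrays in blue, oligospermic arrays in red and a marker shape for each slide. On every array 17 of the lists lie within 0.2 of 0, and in the lists of lymphocytes, macrophages, vessels and antigen presentation control 3 is the highest array.

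Medians of the pathway lists lay near 0. The 15 genes of cholesterol synthesis and uptake had a median log2 fold change of 0.14, none passed, and 3 did not overlap, all of them higher. STARD4, a cholesterol carrier, read 7.70, 7.44 and 7.4 in controls and 7.98, 8.0 and 8.01 in oligospermic testis (0.48, adjusted p = 0.287). The 35 genes of gonadotrophin and inhibin signalling had a median of -0.03. IGFBP6, which binds insulin-like growth factors, was lower without overlap, at 10.52, 9.90 and 10.64 against 9.67, 9.26 and 9.08 (-1.02, adjusted p = 0.246).

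Of the 26 glutathione and antioxidant genes the median was 0.02, with 13 on each side of 0. GSTA2, a glutathione transferase, read 12.73, 12.88 and 13.43 in controls and 14.16, 14.10 and 13.85 in oligospermic testis, higher without overlap (1.02, adjusted p = 0.18). HMOX1, heme oxygenase, was lower without overlap (-0.87, adjusted p = 0.434). In the 17 cell cycle genes the median was 0.02. CCND2, a cyclin of spermatogonia and somatic cells, read 9.62, 10.37 and 9.67 against 8.78, 8.68 and 8.51 (-1.23, adjusted p = 0.145). In the 13 genes of meiotic recombination and repair, a list that does not hold SPO11, the median was 0.00, and RAD54L, which remodels recombination intermediates, read 8.34, 8.71 and 8.54 against 7.82, 7.80 and 7.77 (-0.73, adjusted p = 0.149).

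The 13 flagellum and axoneme genes had a median of 0.02. RSPH4A, of the radial spokes of motile cilia, was well above background on 2 control arrays and on no oligospermic array, with an adjusted p of 0.201. AKAP3, of the fibrous sheath, read 9.76, 10.08 and 9.90 in controls and 9.42, 9.37 and 9.68 in oligospermic testis (-0.42, adjusted p = 0.426). In the 17 genes of tight and gap junctions the median was -0.07 with 12 below 0, and JAM2, a junction adhesion molecule, was lower without overlap (-0.76, adjusted p = 0.26).

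No gene passed in the remaining lists. Among the immune lists, the median log2 fold change was 0.08 over 11 genes of class II presentation, -0.04 over 21 of the interferon response, 0.01 over 18 cytokines and chemokines and -0.11 over 15 of complement. Lists that can follow the handling of a biopsy gave -0.13 over 12 immediate early genes, 0.06 over 16 heat shock and chaperone genes and -0.02 over 16 of hypoxia and glycolysis. The 39 cytosolic ribosomal protein genes gave -0.05, with 32 below 0, the 12 of the respiratory chain -0.03 and the 20 of apoptosis and TNF receptors 0.02. Of the 39 ribosomal probes, 10 were saturated on at least 1 array and 2 on all 6, so a difference in these could be hidden.

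Of the 214 tested probes that differed by 2 or more on the log2 scale, 112 higher and 102 lower, 164 had an adjusted p over 0.05. A large difference misses the test where the arrays of a group lie far apart. Control arrays spanned at least 2 log2 units on 1153 tested probes (2.9%) and oligospermic arrays on 368 (0.927%). The part of this spread in the calls was not tested.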

How the data were processed

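Testis RNA of 3 oligospermic and 3 control arrays was compared, grouped by sample title. Per the file headers, spots were read with Agilent Feature Extraction 11.5.1.1, and the deposited processed signal is an intensity after the background subtraction and detrending of that software, with no normalization between arrays. A table of log2 values that the authors deposited covers 38759 probes. It is quantile normalized over all 9 arrays (largest difference between arrays at any rank 0.00163, median of every column 7.87), it correlated with the log2 processed signal at 0.99982 or more within an array, and it was used as an alternative.

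Here the log2 of the processed intensity of the 6 arrays was quantile normalized with limma 3.58.1 under R 4.3.3. Files were read with pandas 2.3.3. Control spots and outlier flags were left out. limma's moderated linear model was fitted to 39713 probes and p-values adjusted over all of them by the Benjamini-Hochberg method. The number of arrays limits the precision. For a group without any array well above background, the fold limit used, per array, the higher of the probe's signal and the lowest signal well above background. RefSeq genes of Sscrofa11.1 gave names to 20652 probes of 7548 genes, through the accession, gene number or symbol in the scanner file. Chromosomes are from that table, and no coordinates were used since the study's build differs. A gene's brightest probe over the 6 arrays stood for it in lists.

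Genes were named by rule: those of differential probes, the 12 largest rises and falls among genes with all probes in 1 direction without overlap, and, of each of 30 lists, the first 2 genes and the 3 with the largest change, of which only a selection is named. Other named genes were chosen after their values were seen, among them those at an adjusted p of at most 0.05. The members and lists were chosen with earlier results of these data known. Replicate numbers coincide with slides in these 6 arrays. The deviations of same-numbered arrays correlated at 0.494, 0.135 and 0.1, those of the other pairs at -0.371 to 0.292. Alternatives were scaling to the 75th percentile, normexp with an offset of 50, no filter, a filter on all 6 arrays, the replicate block, all 9 arrays, an intensity trend, the authors' values, other thresholds, a single probe per gene and leaving out each array. The fits were tested on simulated data.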

Additional observations from a re-analysis of the deposited data

How the results depend on the processing

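The number of differential probes, 29, depended on the processing. It was 14 with normexp and an offset of 50, 15 without a filter, 18 with all 6 arrays well above background, 54 with all 9 arrays in 1 model, 50 at an adjusted p of 0.05 with the fold threshold kept and 1 with a single probe per gene. Scaling to the 75th percentile, an intensity trend, the authors' values and other fold thresholds gave 25 to 30. Leaving out 1 array gave 5 to 50: 50, 50 and 23 without control 1, 2 and 3, and 9, 9 and 5 without oligospermic 1, 2 and 3. The 80 probes at an adjusted p of 0.05 became 42 without a filter, 467 with all 9 arrays in 1 model, 10 with a single probe per gene and 19 to 243 when 1 array was left out, with 189, 243 and 103 without control 1, 2 and 3 and 30, 26 and 19 without oligospermic 1, 2 and 3. With the replicate block, which here is the slide, 0 probes were differential by both thresholds and 37 had an adjusted p of at most 0.05. For the 29 probes themselves the blocked adjusted p lay between 0.0145 and 0.064. Some settings leave fewer arrays, probes or degrees of freedom, and the cause of these changes was not tested. Each of the 29 probes kept its sign wherever it was tested, as did the medians of the 24 plotted genes. Of the 30 gene lists, 12 kept the sign of their median under all 14 alternatives and 18 did not, among them vessels (-0.19 to 0.31), fibroblasts (-0.24 to 0.06), class I (-0.35 to 0.05) and class II presentation (-0.07 to 0.35) and Sertoli cells (-0.08 to 0.05). With normexp, 11 of the 29 were differential still, the smallest of the 29 was 0.24, and the median of ABCG2 was 1.86. Without oligospermic 1, 2 and 3, the probes that passed numbered 9, 9 and 5 and all were among the 29. In the agreement among probes of one gene, between 2143 and 2657 genes had probes of the same sign. Signals near the background and at saturation limit what could be measured.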

Other observations

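Some genes of the lists were set apart by a single array, chosen here after their values were seen. C6, a late component of complement, read 2.97, 8.59 and 3.07 in controls and 7.79, 7.81 and 8.18 in oligospermic testis, so control 2 lay with the oligospermic arrays. PTGDS, the prostaglandin D synthase of the testis, read 12.61, 8.10 and 11.99 in controls and 12.63, 12.49 and 11.99 in oligospermic testis, with control 2 far below all the others. OASL, an interferon-induced gene, was between 9.01 and 9.46 on 5 arrays and saturated, at 16.16, on oligospermic 2. MX1, an antiviral GTPase, was at 3.92 on control 2 and between 7.97 and 9.31 on the others. FOS, an immediate early transcription factor, read 5.37, 4.60 and 9.66 in controls and 3.85, 3.38 and 4.49 in oligospermic testis, with control 3 highest.

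The differential probes with a named gene lay on chromosome 8 (5 probes, all of ABCG2), 7 (2, of CDKAL1), 1 and 10. The median GC content was 41.7% for the differential probes and 41.7% for all tested probes.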
